A study of Homo sapiens with 2 samples.

Results

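Among SP11-treated cells, those with the most heat shock RNA were taken and described against those with the least. Each cell was given the share of its UMIs (unique molecular identifiers, tags that each mark 1 captured RNA molecule) that came from 7 heat shock genes: HSP90AA1, HSPA8, HSPB1, HSPH1, DNAJA1, HSPE1 and HSPD1. Of 769 SP11 cells that could be ranked, the 193 cells of the top 25% are called heat shock-high, and the 193 cells of the bottom 25% heat shock-low. The series holds 1732 such cells in all, and the same split of 963 untreated control cells gave 241 cells at each end, which serve as the reference for cell cycle and depth. The cells were chosen by their heat shock RNA, so a higher level of these 7 genes is a description of the choice and not a result. The single-cell profiles came from 2 libraries of 10x Genomics RNA-seq. The SP11 group received 0.8 µM SP11, which the study describes as an inhibitor of the chaperone HSP90, and was collected at 48 h. The control group was untreated. The labels give MOLT4 for both, a long-used cell line from a T-cell acute lymphoblastic leukemia. With 1 library per group there are no replicates behind any difference, and no p-value is given. Intervals are 95% and cover counting error only.

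HSP90, HSP70 (HSPA8 is its constitutive form) and the mitochondrial chaperonin made by HSPD1 and HSPE1 help proteins fold, and small heat shock proteins such as HSPB1 hold unfolded proteins in solution. When unfolded proteins accumulate, or when HSP90 is blocked, the transcription factor HSF1 is released, forms trimers and binds heat shock elements near the genes of this response. Cancer cells commonly carry high chaperone levels, and HSP90 keeps many kinases and transcription factors of leukemia cells folded.

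Several facts of the libraries bear on what follows. The ranked SP11 cells had a median of 11222 UMIs and the control cells 18250. Markers of the T lineage were nearly absent: of 31 T-lineage genes, 18 had 0 UMIs over the 769 ranked SP11 cells and 16 over the control cells, among them BCL11B, CD7, DNTT, the CD3 genes CD3D and CD3G, and both T-cell receptor beta constant genes in both libraries. A count of 0 allows up to 0.322 CPM (UMIs of a gene per 1000000 UMIs) in SP11 and 0.156 CPM in control. CD4 alone passed 10 CPM. Genes of myeloid cells were present in part. Of 26 monocyte or macrophage genes, 10 reached 10 CPM in SP11 and 8 in control. Of 12 genes of neutrophils or granulocyte precursors, 6 did in each library. AIF1 and LYZ were in 92.4% or more of cells of each library. CD14 had only 15 UMIs in SP11 and 3 in control, MPO had 5 and 3, and MRC1 had 0 in both. A barcode string found in both libraries occurred 114 times, and 21 heat shock-high cells carried such a barcode. Scrublet marked 4 heat shock-high and 4 heat shock-low cells as possible doublets, which were kept.

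The promoters of the heat shock genes were read in RefSeq windows on GRCh38.p14 to show the element that HSF1 binds. The motif searched was GAANNTTCNNGAA on both strands, which on the other strand reads TTCNNGAANNTTC, within 250 bases upstream of each start site. It was in 155 of 35116 windows (0.441%). Of the 7 genes, HSP90AA1, HSPA8 and HSPD1 held it in a window, and the windows of HSPB1, HSPH1, DNAJA1 and HSPE1 did not. Only exact matches upstream of the start site were searched, so a lack of match does not show that a gene has no heat shock element. The HSPD1 sites lie just outside the HSPE1 window, which is set from a RefSeq start downstream of the HSPE1 gene start in GENCODE 44, so its lack of a match covers only that window. Of other chaperone genes described below, the HSP90 paralog HSP90AB1 and the co-chaperone CHORDC1 held it too, and STIP1, AHSA1, HSPA4 and DNAJB1 did not. The sequences are given 5′ to 3′ on each gene's own strand, with the motif in capitals, to show how similar the sites are. Not every match is printed. HSP90AB1 also had a match 165 to 153 bases upstream, HSPD1 at 245 to 233, and CHORDC1 at 60 to 48 and at 55 to 43.
HSP90AA1, chr14:102087112-102087140, minus strand, 88 to 76 bases upstream: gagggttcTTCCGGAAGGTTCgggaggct
HSPA8, chr11:123062346-123062374, minus strand, 230 to 218 bases upstream: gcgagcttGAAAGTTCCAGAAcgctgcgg
HSPA8, chr11:123062171-123062199, minus strand, 55 to 43 bases upstream: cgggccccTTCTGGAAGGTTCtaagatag
HSPD1, chr2:197500060-197500088, minus strand, 240 to 228 bases upstream: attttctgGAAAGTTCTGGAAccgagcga
HSP90AB1, chr6:44247823-44247851, plus strand, 112 to 100 bases upstream: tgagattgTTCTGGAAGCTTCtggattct
CHORDC1, chr11:90223079-90223107, minus strand, 50 to 38 bases upstream: aaattcgcGAAGGTTCCTGAAacgcaacg
In GENCODE 44 the HSP90AA1 and HSP90AB1 sites lie in introns of longer transcripts of their own gene, the HSPA8 and HSPD1 sites overlap untranslated exons of other transcripts of their own gene, and the CHORDC1 site lies in no transcript. A match describes these letters and does not show that a factor is bound. HSPD1 and HSPE1 are neighbours read in opposite directions, and the HSPE1 gene (chr2:197500140-197503449) lies inside the annotated span of HSPD1 (chr2:197486584-197516737), so reads there can be told apart only by strand.

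Heat shock RNA varied smoothly over SP11 cells, with no gap between the groups. The share of UMIs from the 7 genes had a lowest value of 0.785%, a median of 0.862% and a highest of 1.40% in heat shock-high cells, and 0.110%, 0.547% and 0.604% in heat shock-low cells. The cell just below the heat shock-high group, at 0.7845%, was close to its lowest member at 0.7853%, and the highest heat shock-low cell, at 0.6040%, was close to the next cell at 0.6042%. The groups are ranges of a continuous measure and not kinds of cell. The SP11 library was shifted above the control library, with medians over all ranked cells of 0.697% and 0.393%, but they overlapped. Of 769 SP11 cells, 102 (13.3%) exceeded the highest control cell. In control the top 25% of cells had a median share of 0.509% and the bottom 25% one of 0.282%. Of the 193 heat shock-low SP11 cells, 155 (80.3%) still had a share at or above that of the lowest cell in the control top 25%, and only 2 of 963 control cells reached the lowest heat shock-high cell. The 2 ends differed little in depth: the median was 11333 UMIs in heat shock-high and 9990 UMIs in heat shock-low cells, and 18141 UMIs in the top and 16763 UMIs in the bottom 25% of control. The mitochondrially encoded share had a median of 5.15% in heat shock-high and 5.80% in heat shock-low cells.

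**Figure D1:**
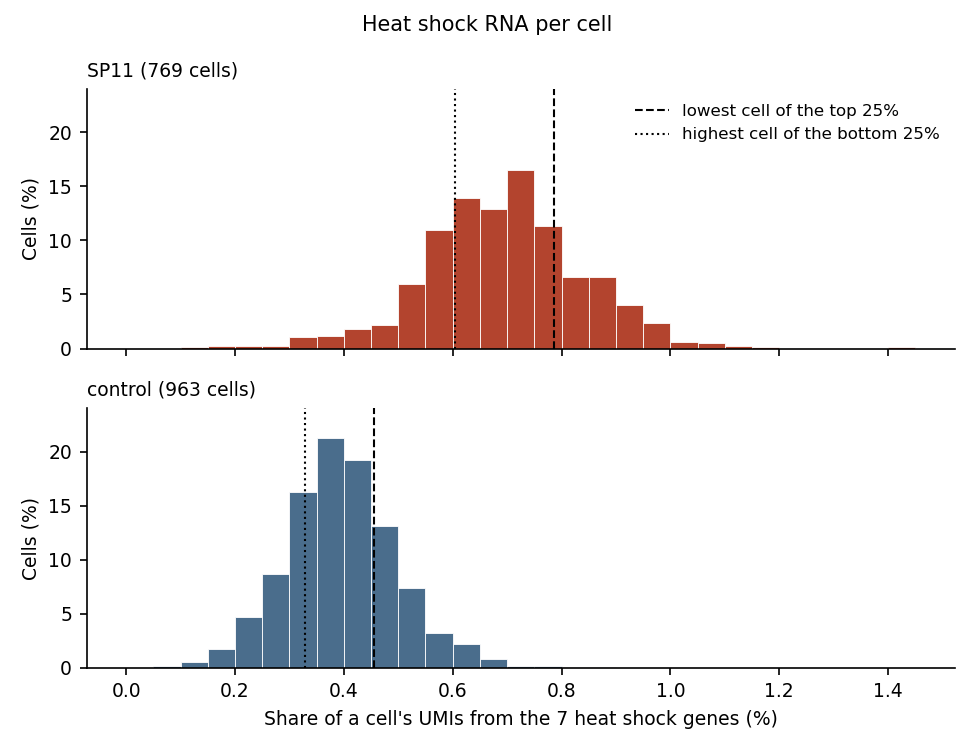
Histograms of the share of a cell's UMIs from the 7 heat shock genes (x axis, %) as a percent of cells (y axis), for 769 SP11 and 963 control cells, in bins of 0.05%. Dashed and dotted lines mark the lowest cell of the top 25% (0.785% in SP11, 0.455% in control) and the highest of the bottom 25% (0.604% in SP11, 0.328% in control), and neither library shows a gap at them.

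All 7 genes followed the ranking, as the choice of cells sets. HSP90AA1, the stress-inducible cytosolic HSP90, was the most abundant, with 1627, 1967, 2277 and 2636 CPM over the 4 quartiles of SP11 cells from low to high. In control the top 25% had 1453 CPM and the bottom 25% 687 CPM. As a share of UMIs, HSP90AA1 was thus higher in heat shock-low SP11 cells than in the top 25% of control, in libraries of different depth. HSPA8, the constitutive cytosolic HSP70, had 721, 949, 1059 and 1408 CPM over the SP11 quartiles, against 719 CPM in the top and 298 CPM in the bottom 25% of control. Its share of all heat shock UMIs was 16.0% in heat shock-high and 14.0% in heat shock-low cells. In single cells, HSPA8 had 0.51 to 37.0 UMIs per 10000 UMIs (median 13.5) in heat shock-high cells and 0 to 18.1 (median 6.58) in heat shock-low cells, so single genes overlapped widely between the groups.

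HSPB1, a small heat shock protein that binds unfolded proteins without using ATP, had 755, 946, 1022 and 1121 CPM over the SP11 quartiles, and 362 CPM in the top and 242 CPM in the bottom 25% of control. HSPH1, the HSP110 that recharges HSP70 with nucleotide, was scarce, with 230.5 CPM in heat shock-high and 141 CPM in heat shock-low cells. DNAJA1, an HSP40 that brings substrates to HSP70, had 262 CPM in heat shock-high and 149 CPM in heat shock-low cells. The mitochondrial pair stood higher: HSPD1, which forms the HSP60 barrel, had 967, 1245, 1395 and 1691 CPM over the quartiles, and HSPE1, its HSP10 lid, had 776, 1043, 1232 and 1437 CPM. In control the top 25% had 1413 CPM of HSPD1 and 972 CPM of HSPE1. CPM counts molecules at 1 end of each RNA and compares these genes only roughly.

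To see whether the 7 genes varied together, each was left out in turn and cells were ranked by the other 6, so that its own counts did not choose the cells. Every gene was higher in the top 25% of such a ranking, by a little in most cases. DNAJA1 differed most, with 242 CPM in the top and 169 CPM in the bottom 25% (log2 ratio 0.52, interval 0.32 to 0.71). HSPD1 had 1530 CPM in the top and 1137 CPM in the bottom 25% (0.43, 0.35 to 0.50), HSPE1 a log2 ratio of 0.42 (0.34 to 0.50) and HSPH1 one of 0.42 (0.22 to 0.62). HSPA8 followed at 0.34 (0.26 to 0.43). HSP90AA1 had 2268 CPM in the top and 1963 CPM in the bottom 25% (0.21, 0.15 to 0.27), and HSPB1 differed least, with 1009 and 934 CPM (0.11, 0.03 to 0.20). Without a small cluster of 19 heat shock-low cells described below, held-out HSPB1 was level, at 0.02. The median over the 7 was 0.42 in SP11 and 0.62 in control. In control HSPH1 had a ratio of 0.98 (0.79 to 1.18), DNAJA1 one of 0.92 (0.73 to 1.11) and HSP90AA1 one of 0.70 (0.64 to 0.76), while HSPD1 (0.42, 0.36 to 0.47) overlapped its SP11 interval. These 7 genes of the same cells are not independent of each other, and the difference between libraries was not tested. Across SP11 cells, the variance of the summed 7 genes was 4.13 times what counting alone gives, and that of single genes 1.32 times (DNAJA1) to 3.21 times (HSPA8). In control the summed value was 4.79 times.

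**Figure D2:**
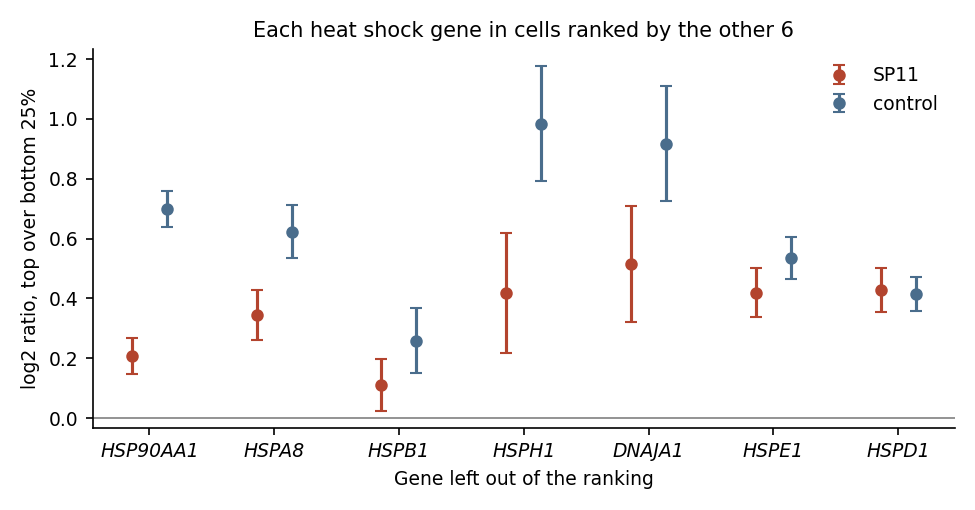
Log2 ratio (y axis) of each heat shock gene's CPM in the top over the bottom 25% of cells when cells were ranked by the other 6 genes, in SP11 (left of each pair) and control (right). Bars are 95% exact counting intervals, and all points are above 0, from 0.11 for HSPB1 to 0.52 for DNAJA1 in SP11.

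Across all genes outside the 7, the heat shock-high cells differed moderately from the heat shock-low cells. Of 7894 genes with 50 or more UMIs over both ends, 438 (5.55%) were higher by 1.5-fold or more and 479 (6.07%) lower by as much, with a median log2 ratio of 0.05 over all. The same split in control put 444 of 10169 genes (4.37%) on the higher side and 552 (5.43%) on the lower side at that size. The fold is a size and not a test, and scarce genes pass it by counting error. Counts at that size in the lists below are to be read beside these shares of all genes. Of the genes measured in both libraries, 59 were at least 1.5-fold higher in both splits, which is 13.5% of the 437 higher in SP11 and 18.4% of the 320 higher in control. On the lower side 64 were shared, 13.9% of the 461 lower in SP11 and 35.6% of the 180 lower in control.

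Other chaperones leaned the same way as the 7 genes but by less. Of 23 HSP90 paralogs and co-chaperones, 3 were at least 1.5-fold higher and none lower, with a median log2 ratio of 0.24 against 0.05 for all genes, and in control 6 were higher, with a median of 0.32. The 3 were CHORDC1, an HSP90 co-chaperone, with 92.8 CPM in heat shock-high and 55.0 CPM in heat shock-low cells (0.76, interval 0.42 to 1.09), FKBP4, a prolyl isomerase that works with HSP90 on steroid receptors, with 164 and 99.4 CPM (0.72, 0.47 to 0.97), and RUVBL1, an ATPase of the R2TP co-chaperone complex, with 93 and 57 CPM (0.70). FKBP4 was below 1.5-fold within phase (0.49) and without cluster 5 (0.58), a small cluster described below. The co-chaperones STIP1 (0.40), which bridges HSP70 and HSP90, and AHSA1 (0.36), which activates the HSP90 ATPase, were below that size in SP11 and at 0.79 and 0.84 in control. The constitutive HSP90 paralog HSP90AB1 had 4409 CPM in heat shock-high and 3746 CPM in heat shock-low cells (0.24, 0.19 to 0.28), and 3743 CPM in the top and 2811 CPM in the bottom 25% of control (0.41, 0.38 to 0.45). CDC37, the adaptor that brings kinases to HSP90, was level, at 0.04.

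Of 32 HSP70, HSP40 and small heat shock protein genes outside the rule, 19 were measured, and none of these reached that size in either direction (median log2 ratio 0.20 in SP11 and 0.29 in control). HSPA4, an HSP110 relative, had 71.6 CPM in heat shock-high and 50.4 CPM in heat shock-low cells (0.51, interval 0.15 to 0.87), and the mitochondrial HSP70 HSPA9 stood at 0.42. DNAJB1, a strongly heat-inducible HSP40, stood at 0.25 in SP11 and 0.66 in control. The stress-induced HSP70 genes were scarce: over all ranked SP11 cells HSPA1A had 71 UMIs, with 19 in heat shock-high and 17 in heat shock-low cells, and HSPA1B had 76 UMIs, with 17 and 13. These are near-identical copies whose reads cannot always be told apart. HSPA6 had 9 UMIs, and the HSP70 cofactor BAG3 had 48, with 12 in heat shock-high and 9 in heat shock-low cells.

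The list of HSF factors and other HSF1 targets did not lean upward. Of its 10 measured genes, 1 was at least 1.5-fold higher and 3 lower, with a median of 0.05, and over alternative settings the sign of that median changed in 4 of 20. In control 1 of 13 was higher and none lower (median 0.17). Among the lower ones in SP11 were SQSTM1, the autophagy receptor p62, with 228 CPM in heat shock-high and 377 CPM in heat shock-low cells (-0.73, interval -0.89 to -0.57) and IER5, an HSF1 cofactor (-0.72, -1.37 to -0.08). SQSTM1 was below 1.5-fold within phase (-0.55) and without cluster 5 (-0.52), which held 23.3% of its UMIs in heat shock-low cells, and IER5 was not (-0.87 and -0.73). In control SQSTM1 (0.05) and IER5 (0.09) were near level. CLU, the extracellular chaperone clusterin, was higher on few counts, with 36 UMIs in heat shock-high and 16 in heat shock-low cells. HSF1 itself had 47.3 and 37.4 CPM (0.34, -0.09 to 0.77), within counting error.

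Chaperone machines outside the HSP90 and HSP70 systems shifted by small and similar amounts. All 8 measured subunits of the cytosolic chaperonin TRiC, which folds actin and tubulin, were higher, from 0.21 for CCT7 to 0.40 for TCP1 and CCT3. Its list with the prefoldins had a median of 0.30 in SP11 over 16 genes and 0.44 in control, with no gene at that size in SP11 and the prefoldin PFDN5 below 0 (-0.25). Of 21 genes of mitochondrial protein folding and import, 1 was at least 1.5-fold higher (TIMM8A, an import chaperone of the intermembrane space, at 0.63, and at 0.38 within phase), and the median was 0.32 in SP11 and 0.29 in control. The import receptors TOMM20 (0.41), TOMM22 (0.43) and TOMM70 (0.43) lay above it in SP11. Of 31 proteasome subunits 1 was at least 1.5-fold higher (PSMD12, 0.59, interval 0.33 to 0.85, and 0.49 within phase), with a median of 0.16 in SP11 and 0.45 in control. That 1 gene of 31, like the 1 of 21 above, is a share below the 5.55% of all genes. For 20 measured chaperones of the endoplasmic reticulum and genes of the unfolded protein response the median was 0.15 in SP11 and 0.07 in control, with XBP1, the transcription factor of that response, at 0.66 (0.25 to 1.08), and at 0.43 without cluster 5.

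Heat shock-high cells were mostly cells called G2M. Phases came from expression scores of S and G2M genes, and 115 of 193 heat shock-high cells (59.6%, interval 52.3 to 66.6) were called G2M, against 46 of 193 heat shock-low cells (23.8%, 18.0 to 30.5). In control 104 of 241 cells of the top 25% (43.2%, 36.8 to 49.7) and 60 of 241 of the bottom 25% (24.9%, 19.6 to 30.9) were. The libraries also differed as a whole, with 42.9% of all ranked SP11 cells and 34.8% of all ranked control cells called G2M. G1 calls fell on 19.2% of heat shock-high and 39.4% of heat shock-low cells. With the same cells scored at a fixed 4400 UMIs per cell, 56.0% of heat shock-high and 22.8% of heat shock-low cells were called G2M. The gap was thus also there with scores at equal depth. With cells also ranked at 4400 UMIs, 52.6% of the top 25% were called G2M. Read the other way, heat shock-high cells made up 34.8% (29.7 to 40.3) of the 330 G2M cells, 16.9% of the 242 S cells and 18.8% of the 197 G1 cells. Over single cells the heat shock share had a Spearman correlation of 0.28 with the G2M score in 769 SP11 cells and 0.21 in 963 control cells, which is weak and shares the same UMIs. Phase calls are expression scores, and whether more cells were dividing was not tested.

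**Figure D3:**
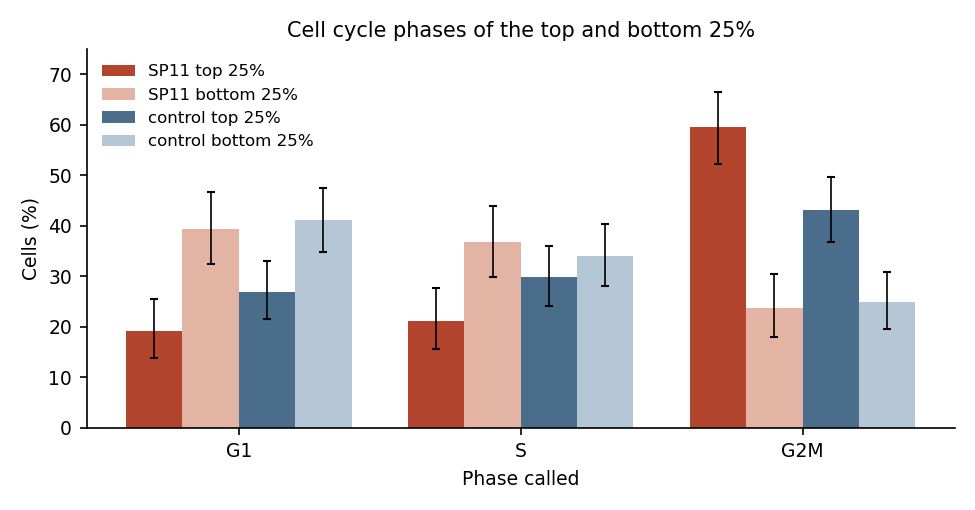
Percent of cells (y axis) called G1, S and G2M (x axis) in the top 25% by heat shock RNA and in the bottom 25%, in SP11 (193 cells each) and control (241 cells each). Bars carry 95% exact binomial intervals, and G2M holds 59.6% of the SP11 top 25% and 23.8% of the bottom 25%.

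The genes of G2M and the spindle, some of which set the phase calls, lay on the same side. Of 43 measured, 29 were at least 1.5-fold higher in heat shock-high cells and none lower (median log2 ratio 0.72), and 14 of 44 were in control (median 0.47, with 1 lower). PLK1, the kinase that drives mitotic entry, had 80.4, 133, 157 and 189.6 CPM over the SP11 quartiles from low to high (top over bottom 1.24, interval 0.98 to 1.499), and 86.3 CPM in the top and 43.5 CPM in the bottom 25% of control. CCNB1, the cyclin of mitotic CDK1, had 173 CPM in heat shock-high and 75.8 CPM in heat shock-low cells (1.19, 0.93 to 1.46), and the same ratio in control (1.19, 0.97 to 1.42). CDK1 (-0.15) and UBE2C (-0.13), an E2 enzyme of the anaphase-promoting complex, did not share the pattern in SP11, UBE2C on only 37 UMIs in heat shock-high and 38 in heat shock-low cells. KIF14, a kinesin of cytokinesis, stood at 0.91 (0.59 to 1.25) in SP11 and 0.13 (-0.07 to 0.32) in control, with 0.19 in SP11 within phase, and KIF23, another, at 1.12 and 0.51. TTK, a spindle checkpoint kinase, had 49 and 24 CPM (1.04) in SP11 and a ratio of 0.06 in control.

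The difference in these genes varied by phase. Among cells called G2M, the summed level of G2M and spindle genes was 7533 CPM in heat shock-high and 7504 CPM in heat shock-low cells (0.01, interval -0.05 to 0.06), and PLK1 had 258 and 222 CPM (0.22, -0.08 to 0.52). Among cells called S the sum had a ratio of 0.14 (0.05 to 0.24). Among cells called G1 the ratio was above that over all cells (0.64), at 3915 CPM in heat shock-high and 2297 CPM in heat shock-low cells (0.77, 0.67 to 0.87). Sums by phase include cluster 5, which had 1284 CPM of these genes, against 4315 CPM in the other heat shock-low cells. The sums by phase were not recomputed without cluster 5. When cells were ranked within each phase, the list's median was 0.19, and PLK1 stood at 0.39 and CCNB1 at 0.60. The summed level of HSP90 paralogs and co-chaperones kept its size among G2M cells, at 7708 CPM in heat shock-high and 6404 CPM in heat shock-low cells (0.27, 0.21 to 0.32). It did likewise among G1 cells (0.32, 0.26 to 0.39) and S cells (0.23, 0.17 to 0.29). HSP90AB1 alone held 8105 of the list's 14030 UMIs in heat shock-low cells, so it weighs most in this sum. S phase genes were level over all cells, 1 of 35 being above 1.5-fold (RFC4) and 2 below it (median -0.02 in SP11 and 0.11 in control). These counts are near or below the 5.55% higher and 6.07% lower of all genes. The sign of that SP11 median changed in 7 of 20 alternative settings. The 2 lower ones were the cyclins of S phase entry, CCNE2, with 16.9 CPM in heat shock-high and 34.2 CPM in heat shock-low cells (-1.02), and CCNE1, with 8.7 and 15.3 CPM (-0.81, -1.69 to 0.03). Ranked within phase, CCNE2 stood at -0.51 and CCNE1 at -0.46, both short of 1.5-fold.

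Genes of ribosome synthesis were also higher at the heat shock-high end. TWISTNB, a subunit of RNA polymerase I, had 97.2 CPM in heat shock-high and 46.7 CPM in heat shock-low cells (1.06, interval 0.71 to 1.41), and 83.7 CPM in the top and 53.9 CPM in the bottom 25% of control (0.64, 0.40 to 0.88). It kept most of its size within phase (0.77). PNO1, an assembly factor of the small subunit, stood at 0.90 (0.57 to 1.24) in SP11 and 0.74 in control, and NOL11, a nucleolar factor of early ribosomal RNA processing, at 0.88 (0.54 to 1.23) in SP11 and 0.19 (-0.06 to 0.44) in control. All 27 genes of the list of MYC targets and ribosome biogenesis had ratios above 0 in SP11, with 3 at least 1.5-fold higher: NOP16 (0.78), MRTO4 (0.65) and RRS1 (0.64). Without cluster 5, MRTO4 stood at 0.498. The median was 0.42 in SP11 and 0.43 in control, and within phase 0.37. Nucleolin (NCL) had 1100.05 CPM in heat shock-high and 836 CPM in heat shock-low cells, and nucleophosmin (NPM1) had 1159.9 and 946 CPM. Genes of the cytosolic ribosomal proteins did not follow: none of 36 reached 1.5-fold, and their median was 0.05, the same as for all genes. MYC itself had 88.1 CPM in heat shock-high and 67.0 CPM in heat shock-low cells (0.39, 0.08 to 0.71), and 0.70 (0.52 to 0.87) in control. With ends of 10% its SP11 ratio was -0.09.

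Among the 10 genes with the highest ratio, only MT1G had a control ratio below 0. MT1G, a metallothionein that binds zinc and other metals, had 142, 179, 225 and 282 CPM over the SP11 quartiles from low to high (0.99, interval 0.79 to 1.19), and 76.7 CPM in the top against 82.5 CPM in the bottom 25% of control (-0.11, -0.32 to 0.11). The ratio in SP11 exceeded that in control by 1.09 (0.81 to 1.38). In SP11 the MT1G ratio stood at 1.00 within phase and at 0.80 without cluster 5. The other metallothioneins were closer to level, MT2A at 0.16 (-0.09 without the small cluster described next), MT1X at 0.17 and MT1E at 0.20, and MT1F was lower (-0.51, -0.84 to -0.18).

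A small group of cells carried much of the difference at the low end. Clustering of the SP11 library gave a cluster 5 of 20 cells, 19 of them ranked, whose leading genes were ATP6V0D2, SLC26A11, TDO2 and MMP1. All 19 were heat shock-low, with a median heat shock share of 0.340% and 15274 UMIs, and 0 of 19 were heat shock-high, which allows a share of up to 17.6%. They were 9.84% of heat shock-low cells and held 12.7% of their UMIs. TDO2, which starts tryptophan breakdown, had 4 UMIs in heat shock-high and 347 in heat shock-low cells, and 91.6% of the 347 came from cluster 5. MMP1, interstitial collagenase, had 33 UMIs in heat shock-high and 720 in heat shock-low cells, with 78.9% of the 720 from cluster 5 and 23 of the 33 from 1 cell. Without cluster 5 the log2 ratio of MMP1 was -2.35, against -4.54 with it, and that of TDO2 -3.23, against -6.53. In control MMP1 had 135 UMIs in the top and 786 in the bottom 25% (-2.66, interval -2.94 to -2.40), but 128 of the 135 and 321 of the 786 came from 1 cell each. TDO2 had 0 UMIs in the top and 63 in the bottom 25% of control, 61 of them from 1 cell.

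S100A8 and S100A9, which form calprotectin in myeloid cells, were far lower in heat shock-high cells. S100A8 had 69.0 CPM in heat shock-high cells, against 669 CPM in heat shock-low cells and 295 CPM in the heat shock-low cells outside cluster 5, and its log2 ratio of -3.28 (interval -3.52 to -3.04) was -1.97 without cluster 5. S100A9 had 42.5, 410.0 and 148 CPM in the same 3 sets of cells, and its ratio of -3.27 was -1.70 without cluster 5. In control S100A8 stood at -3.03 on 10 UMIs in the top and 75 in the bottom 25%, 53 of these from 1 cell, and S100A9 at -2.41. Most of the difference lay in the lowest quartile: over the SP11 quartiles from low to high, S100A9 had 410.0, 62.0, 55.7 and 42.5 CPM. TYROBP, an adaptor of activating receptors on myeloid cells, had 44.2 CPM in heat shock-high and 211 CPM in heat shock-low cells (-2.26), and stood at -1.31 without cluster 5 and at -0.61 (-1.01 to -0.21) in control. NCF1, a subunit of the phagocyte NADPH oxidase, was lower by like amounts in SP11 (-2.07, -2.47 to -1.68) and control (-2.002, -2.41 to -1.61), where 62 of its 254 UMIs in the bottom 25% came from 1 cell.

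**Figure D4:**
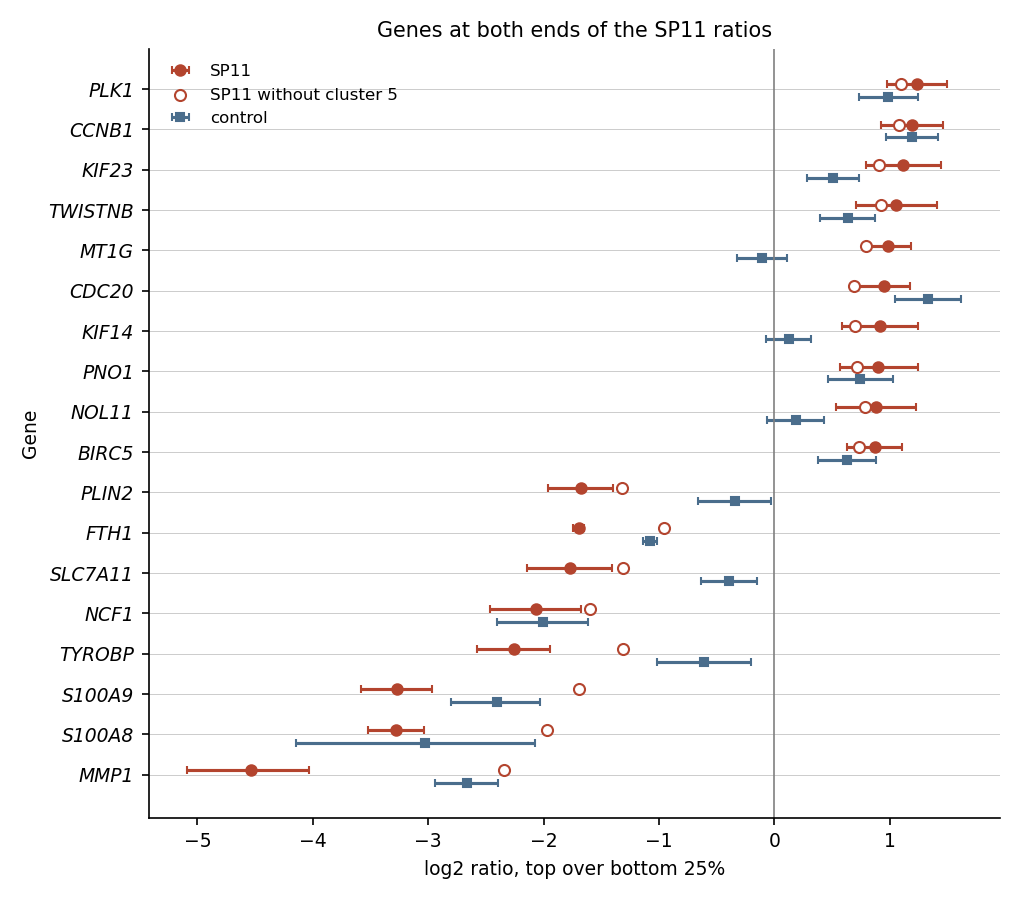
Log2 ratio (x axis) of CPM in the top over the bottom 25% for the 10 genes with the highest and 8 of those with the lowest ratio in SP11 (TDO2, at -6.53, is beyond the axis). Filled circles are SP11, open circles SP11 without cluster 5 and squares control, and bars on the filled circles and squares are 95% exact counting intervals. Leaving out cluster 5 moves MMP1 to -2.35 and S100A8 to -1.97 and moves PLK1 only to 1.10.

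Some genes of iron storage and oxidative stress were lower too. FTH1, the ferritin heavy chain, had 2187 CPM in heat shock-high and 7089 CPM in heat shock-low cells, and 4340 CPM in the heat shock-low cells outside cluster 5 (-1.70, interval -1.74 to -1.65, and -0.96 without cluster 5). In control it had 735 CPM in the top and 1547 CPM in the bottom 25% (-1.07, -1.13 to -1.01). Among G2M cells alone, FTH1 had 1489 CPM in heat shock-high and 3121 CPM in heat shock-low cells. The light chain FTL had 15795 CPM in heat shock-high and 24108 CPM in heat shock-low cells. HMOX1, the enzyme that breaks down heme, had 16 UMIs in heat shock-high and 125 in heat shock-low cells (-3.06, -3.91 to -2.30), and -1.76 without cluster 5. SLC7A11, the cystine importer, stood at -1.77 (-2.15 to -1.40), and PLIN2, the coat of lipid droplets, at -1.68 (-1.96 to -1.40). Without cluster 5 they were at -1.31 and -1.32. Of 14 measured NRF2 targets and iron genes 5 were at least 1.5-fold lower, with a median of -0.31, and -0.22 without cluster 5. TFRC, the transferrin receptor, stood at 0.39 and PRDX1, a peroxiredoxin, at 0.08. The summed level of the list had a ratio of -1.07 among G1 cells, -0.37 among G2M cells and -0.08 among S cells. These sums by phase include cluster 5, which had 79930 CPM of the list, against 27487 CPM in the other heat shock-low cells. In control 1 of 13 was lower and the median was 0.13.

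Monocyte and macrophage markers moved with this end. Of 26 such genes 12 were measured in SP11, and 10 of these were at least 1.5-fold lower in heat shock-high cells, with a median of -1.01, and -0.50 without cluster 5. In control 5 of 13 were lower (median -0.28). Their summed level was 1918 CPM in heat shock-high cells, 3391 CPM in heat shock-low cells and 2650 CPM in the heat shock-low cells outside cluster 5, against 8480 CPM in cluster 5 itself, and 1306 CPM in the top and 1396 CPM in the bottom 25% of control. MRC1, VCAN and C1QB were at 0 UMIs over all ranked SP11 cells, and CD14 had 15. FCER1G, the Fc receptor gamma chain, had 336 CPM in heat shock-high and 771 CPM in heat shock-low cells (-1.20). AIF1 (-0.02) and FCGR1A (-0.02) were level. By phase, with cluster 5 included, the summed level was 1816 CPM in heat shock-high and 4551 CPM in heat shock-low cells among G1 cells. It was not recomputed by phase without cluster 5. It was 1744 CPM in heat shock-high and 2760 CPM in heat shock-low cells among G2M cells, and 2568 CPM in heat shock-high and 2452 CPM in heat shock-low cells among S cells. The part of these cells in the differences at the low end was not tested beyond the values without cluster 5.

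Lysosomal genes and NF-kB targets leaned the same way. Of 23 measured genes of the lysosome and its proton pump 10 were at least 1.5-fold lower and none higher (median -0.51, and -0.23 without cluster 5), and none of 22 in control (-0.08). GRN, progranulin, had 71.1 CPM in heat shock-high and 148 CPM in heat shock-low cells (-1.06, interval -1.34 to -0.78). GRN stood at -0.55 without cluster 5, which held 35.9% of its UMIs in heat shock-low cells. CTSD, a lysosomal protease, had 1387 CPM in heat shock-high and 1925 CPM in heat shock-low cells (-0.47). Of 11 NF-kB targets 6 were lower (median -0.93, -0.47 without cluster 5, and -0.19 in control). Their sum had a ratio of -1.10 among G1 cells, -0.74 among G2M cells and 0.02 among S cells. These sums by phase include cluster 5, which had 2979 CPM of the NF-kB targets, against 967 CPM in the other heat shock-low cells. Of 8 immediate early genes 4 were lower and 1, FOSL1, higher (median -0.64, and -0.18 without cluster 5, against 0.17 in control). CXCL8, a chemokine for neutrophils, had 37.3 CPM in heat shock-high and 104 CPM in heat shock-low cells (-1.49, -1.86 to -1.12), and stood above 0 in control (0.55, 0.25 to 0.85), where 203 of its 240 UMIs in the top 25% came from 1 cell. BCL2A1, an NF-kB-induced survival gene of the BCL2 family, had 147 and 319.8 CPM (-1.12, -1.31 to -0.93), and stood at -0.69 without cluster 5 and -0.31 in control. CXCL10 was lower on the counts of few cells, since 38 of its 45 UMIs in heat shock-low cells came from 1 cell.

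**Figure D5:**
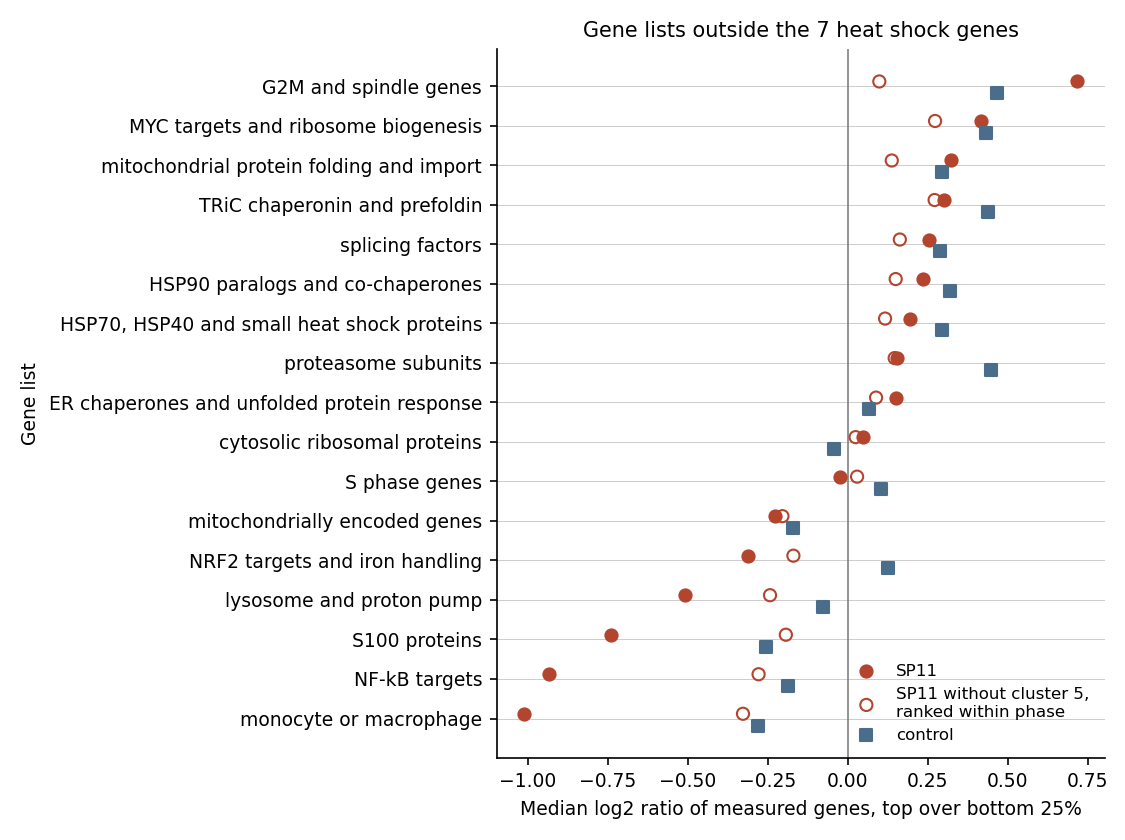
Median log2 ratio (x axis) of the measured genes of 17 lists outside the 7 heat shock genes, top over bottom 25%, in SP11 (filled circles), in SP11 without cluster 5 and with cells ranked within phase (open circles), and in control (squares). G2M and spindle genes stand at 0.72 in SP11 and 0.10 with both steps, and the monocyte or macrophage markers at -1.01 and -0.33.

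Both sides were recomputed without cluster 5. The number of genes at least 1.5-fold higher was then 295 and the number lower 333, and with cells also ranked within phase 196 and 307. The median of the held-out heat shock genes was 0.32 without cluster 5. Ranking within phase alone gave 262 higher and 435 lower genes. Among the other clusters, cluster 1, led by PIF1, UBE2C and TOP2A, had 68 heat shock-high cells of 183 (37.2%, interval 30.1 to 44.6) and 23 heat shock-low. Cluster 2, led by RN7SL832P, STPG4 and CD69 among others, had 57 of 172 (33.1%, 26.2 to 40.7), cluster 3, led by histone genes, 23 of 107 (21.5%), and cluster 0, the largest, 39 of 278 (14.0%, 10.2 to 18.7) beside 98 heat shock-low cells. Cluster 4 had 70 kept cells, but only 10 were ranked, with a median of 5595 UMIs. Of these 10, 6 were heat shock-high (60.0%, 26.2 to 87.8), the largest share of any cluster but on few and shallow cells. The clusters were made from the same counts that hold the 7 genes, so these shares are descriptions.

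Granule genes of myeloid precursors were split. CTSG, the neutrophil protease cathepsin G, had 246, 320.2, 337 and 374 CPM over the SP11 quartiles from low to high (0.60, interval 0.45 to 0.76, and 0.50 without cluster 5), and 429 CPM in the top against 491 CPM in the bottom 25% of control (-0.19, -0.28 to -0.10). Among G2M cells its SP11 ratio was 0.09 (-0.14 to 0.32). PRTN3 (0.56, 0.28 to 0.84) and MS4A3 (0.93, 0.54 to 1.33) were likewise higher in heat shock-high cells, and LYZ, lysozyme, was lower, with 616 CPM in heat shock-high and 1063 CPM in heat shock-low cells (-0.79). CTSG and MS4A3 were the 2 of 11 measured granule genes above 1.5-fold, and LYZ the 1 below it.

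The study grouped HSF1, HIF1A, BCL2 and NOTCH1 as HSP90 clients, and BMI1, CD44 and MYC among stemness markers. These and other genes it followed leaned upward by a small amount. Of 11 measured, 1 was at least 1.5-fold higher and none lower (median 0.30 in SP11, against 0.05 for all genes, and 0.31 in control). MYC (0.39, 0.08 to 0.71), HSP90AB1 (0.24, 0.19 to 0.28) and HIF1A (0.37, 0.001 to 0.73), the hypoxia factor, had intervals above 0. MYC stood at 0.54 within phase but at -0.09 with ends of 10%, and HIF1A at 0.19 within phase. The 1 gene at least 1.5-fold higher was BMI1, a polycomb protein of self-renewal. It had 131 CPM in heat shock-high and 82.7 CPM in heat shock-low cells (0.66, interval 0.39 to 0.94), and a ratio of 0.20 (0.09 to 0.32) in control. BMI1 was below that size within phase (0.34) and without cluster 5 (0.54). BCL2 (0.11, -0.34 to 0.56), NFKB1 (0.12, -0.19 to 0.44), CD44 (-0.14, -0.41 to 0.13), NOTCH1 (0.30, -0.40 to 1.01) and PIK3CA (-0.09, -0.84 to 0.66) all had intervals that reached 0. Of 18 measured kinases that depend on HSP90, 1 was at least 1.5-fold higher and none lower (median 0.06), near the 5.55% of all genes on the higher side. RIPK1 stood at 0.79 (-0.06 to 1.68, and 0.10 within phase). LYN, a SRC family kinase, stood at -0.56 (-0.77 to -0.35), against -0.15 in control.

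RNA classes tied to quality differed in part. All 13 mitochondrially encoded genes together had 51756 CPM in heat shock-high and 60779 CPM in heat shock-low cells (-0.23, interval -0.24 to -0.22), and 85289 CPM in the top and 97820 CPM in the bottom 25% of control (-0.20). MALAT1, a long noncoding RNA kept in the nucleus, had 1321 CPM in heat shock-high and 910 CPM in heat shock-low cells (0.54, 0.46 to 0.62), but 1729 CPM in the top and 2269 CPM in the bottom 25% of control (-0.39, -0.43 to -0.35). Its SP11 ratio was 0.08 within phase and 0.80 without cluster 5, and 272 of its 1968 UMIs in heat shock-low cells came from 1 cell. NEAT1, another nuclear RNA, was lower at the top in SP11 (-0.86, -1.01 to -0.71, and -0.54 without cluster 5) and control (-0.71, -0.77 to -0.66). The abundant genes GAPDH (-0.13, -0.18 to -0.09) and ACTB (-0.09, -0.13 to -0.05) were near level. The part of RNA quality in the values above was not tested.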

How the data were processed

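Both deposited matrices hold raw UMI counts of 36601 genes by barcode, made by the authors with Cell Ranger 7.1.0 per the file headers and not normalized. The submitters' processing notes name GRCh38. For intronic reads the setting was not stated in the sources read. The SP11 matrix held 864 barcodes with 9561360 UMIs and the control matrix 1076 barcodes with 19512669 UMIs. Barcodes with at least 200 genes and at most 20% mitochondrial UMIs were kept (852 SP11, 1053 control), by the limits the study gives, which leaves more cells in both libraries than the study kept, and the 83 SP11 and 90 control cells under 4400 UMIs were not ranked.

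UMIs were summed over the cells of each end. CPM and log2 ratios of genes outside the 7 ranking genes use the total without those 7, and intervals come from the exact (Clopper-Pearson) split of a gene's UMIs. CPM has an exact Poisson and shares of cells an exact binomial interval. With 1 library per group, cells are not replicates. Whether a library pooled cultures is not stated. Phases and clusters came from Seurat 5.3.0 (R 4.3.3; 2000 features, 10 principal components, resolution 0.5) in each library alone, doublet calls from Scrublet in scanpy 1.11.5. Named genes are the 7 ranking genes, the 10 highest and 10 lowest among genes with 200 or more UMIs at their higher end, up to 2 from each end of every list, genes the study followed, and reference genes. Other genes named in a list's sentence were chosen after their values were seen. The members and the 40 gene lists were chosen with earlier results of these data known. Some lists share genes. Alternatives were other denominators, TMM (edgeR 4.0.16) and DESeq2 1.42.0 scaling, equal cell weights, thinning, other rankings, filters and minimums. The ratio code was tested on simulated data. No column of another sample was present. The study's work in mice was not analysed here. A few genes that the naming rule or the lists hold are not reported here.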

Additional observations from a re-analysis of the deposited data

Results flagged for a closer look

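CCNE1, a cyclin of S phase entry, went opposite ways in the same split of the 2 libraries. In SP11 it had 20 UMIs in heat shock-high and 33 in heat shock-low cells (log2 ratio -0.81), and in control 50 UMIs in the top and 18 in the bottom 25% (1.35). The SP11 ratio less the control ratio was -2.17, with a counting interval of -3.28 to -1.05. It was picked out because the directions are opposite, the difference was not tested, and the counts are few.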

How the results depend on the processing

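With 1 library per group there is no replicate to leave out. No paired analysis was possible because each group has 1 sample. Steps with cluster 5, shared barcodes, the shallow clusters or held-out ranking within phase were chosen after seeing the data.

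Thinning every cell to 4400 UMIs leaves fewer genes over the minimum and gave 277 genes higher and 282 lower in SP11 and 304 lower in control. The pooled heat shock share of the top 25% was then 0.928%, against 0.879% unthinned. FOSL1 stood at -0.28 after thinning, against 1.04, and ISG15 at 0.0845, against -0.77. Ranking within phase gave 262 higher in SP11 and a held-out median of 0.31. With both steps, without cluster 5 and within phase, SP11 had 196 higher and 307 lower. Without cluster 5 the held-out median was 0.32. Ends of 10% gave 762 higher in SP11 and 1000 in control, with held-out medians of 0.66 in SP11 and 1.00 in control. A minimum of 200 UMIs per gene gave 132 higher and 121 lower in SP11 and 195 and 180 in control, and a minimum of 1 UMI 3018 and 3774 in SP11 and 3596 and 4530 in control. Subtracting the trend with intronic length gave 276 higher in control. The cause of these moves was not tested, except where fewer genes or cells entered. TMM and DESeq2 shifted the median of all genes by at most 0.03 on the log2 scale. Of all values recomputed, 3642 moved little and 617 moved more. FOSL1 and ISG15 were the 2 single genes past 1.5-fold that changed sign, and values near 0 changed sign more often. In SP11, 13 list medians changed sign under at least 1 setting, those of the T-lineage and B-lineage markers included. Depth limits scarce genes most.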
